A study of Caenorhabditis elegans with 2 samples.

Results

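In a pooled MXL-3 ChIP-seq list from Caenorhabditis elegans larvae, which holds background as well as peaks, 249 of 30000 entries had their summit within 250 bp of a small nucleolar RNA (snoRNA) or small nuclear RNA (snRNA) gene. Of these, 188 lay at snoRNA genes and 62 at snRNA genes, with 1 peak near a gene of each kind. They were found by position alone, from the gene biotypes of Ensembl release 115. Only 1 further peak was left out because a tRNA gene also lay within 250 bp of its summit. MXL-3 is a basic helix-loop-helix leucine zipper factor of the Max family. The larvae were of strain OP745, which carries the insertion wgIs745, a construct of mxl-3::TY1::EGFP::3xFLAG with an unc-119(+) marker, on an unc-119 (tm4063) background. Whole L4 larvae of mixed sex, aged 48 hours and synchronised by bleaching and starvation, gave 2 biological replicates of 1 group, and chromatin was precipitated with an anti-GFP antibody. The tagged copy was thus a transgene on top of whatever endogenous mxl-3 the strain holds, what drives it is not given in the sources used here, cells of all tissues were mixed, and no condition was compared with another.

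The pooled list came from both replicates and held 30000 peaks, with background included for the next step. From it 3935 peaks passed their irreproducible discovery rate (IDR) threshold, and these were the 3935 with the highest signal. They are called thresholded here, and the other pooled peaks are called peaks below the threshold. The signal value is the caller's own score for a peak, on a scale that is not given in the sources used here, so it ranks peaks within a list and carries no error of its own. Sequencing depth is unknown, since no read totals were used. Percentages are followed by exact Clopper-Pearson 95% intervals, which cover counting error only and treat peaks or genes as independent. No difference between sets of peaks or genes was tested, and intervals that overlap do not show that the shares are equal. The profiles of the control or of other factors at these genes were not analysed here.

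snoRNAs pair with ribosomal and other RNAs in the nucleolus and guide their 2′-O-methylation or pseudouridylation, and many animal snoRNA genes lie in introns of protein-coding hosts. snRNAs are the RNA core of the spliceosome, and in nematodes the biotype also takes in the spliced leader RNAs, SL1 from the sls-1 genes and SL2 from the sls-2 genes, which are trans-spliced onto the front of messenger RNAs. Small RNA genes of this kind use compact promoters. tRNA genes, transcribed by RNA polymerase III, carry an A box and a B box inside the gene, whereas snRNA genes are read from a sequence element a short way upstream of the transcript.

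Sequence around the 5′ end of 9 genes with a thresholded peak shows letters that several of these sites had in common. The genes were picked as examples of each element, not by rank. Each stretch runs 5′ to 3′ on the strand of the gene, from 110 bases before its 5′ end to the 40th base of the gene, and was read from the RefSeq WBcel235 genome. Base 111 is therefore the first base of the gene. The 3 snoRNA genes shown first carried tRNA-type boxes ahead of the gene. Capitals in these 3 mark the A box letters TGGCNNAG and the B box letters GTTCNANNC.
T03F7.8: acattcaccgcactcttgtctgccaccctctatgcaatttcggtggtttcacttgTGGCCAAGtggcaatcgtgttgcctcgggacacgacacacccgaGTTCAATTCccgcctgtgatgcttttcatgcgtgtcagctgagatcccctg
F55A11.10: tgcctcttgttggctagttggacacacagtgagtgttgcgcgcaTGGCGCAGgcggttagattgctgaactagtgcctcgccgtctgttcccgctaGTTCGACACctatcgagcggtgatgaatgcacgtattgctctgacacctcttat
W03C9.9: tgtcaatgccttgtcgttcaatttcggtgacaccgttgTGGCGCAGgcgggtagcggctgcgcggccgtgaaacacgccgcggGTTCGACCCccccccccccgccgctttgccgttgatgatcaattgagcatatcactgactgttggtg
T03F7.8 spans chrV:11314148-11314297, F55A11.10 chrV:11782882-11783031 and W03C9.9 chrII:11960788-11960937 in this view, all on the plus strand. Their summits fell on bases 72, 86 and 56 of the printed stretches, between the start of one box and the end of the other.

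A second element came in 2 parts. It read GAACNCG, then 5 bases of any kind, then TGTCGG, and is called the paired element here. The next 4 stretches, from 2 snoRNA genes and 2 snRNA genes, show its parts in capitals.
Y67A10A.14: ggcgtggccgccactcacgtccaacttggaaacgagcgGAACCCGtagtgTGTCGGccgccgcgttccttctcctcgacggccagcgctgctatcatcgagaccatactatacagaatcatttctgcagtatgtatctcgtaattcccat
T08B6.64: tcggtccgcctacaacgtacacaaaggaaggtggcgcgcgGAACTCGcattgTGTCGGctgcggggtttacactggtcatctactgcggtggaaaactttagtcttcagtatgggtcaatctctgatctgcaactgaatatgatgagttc
sup-6: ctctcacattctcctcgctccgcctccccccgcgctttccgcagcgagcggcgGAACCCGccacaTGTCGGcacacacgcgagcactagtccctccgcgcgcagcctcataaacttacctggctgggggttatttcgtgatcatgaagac
sls-2.16: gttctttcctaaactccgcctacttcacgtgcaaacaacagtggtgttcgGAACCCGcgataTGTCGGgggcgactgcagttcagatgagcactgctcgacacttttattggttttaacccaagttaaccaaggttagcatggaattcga
Y67A10A.14 (a snoRNA gene, chrIV:14327082-14327231, minus strand) and T08B6.64 (a snoRNA gene, chrIV:4880811-4880960, minus strand) had their summits on bases 69 and 119. The U1 snRNA gene sup-6 (chrII:12944928-12945077, minus strand) and the SL2 gene sls-2.16 (chrIII:7141281-7141430, plus strand) had theirs on bases 108 and 58.

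The last 2 stretches, one of each biotype, are strong sites that lacked these exact spellings and so have no capitals. Both held a near spelling in the same layout, with 1 letter changed in each box or part.
T04A8.17: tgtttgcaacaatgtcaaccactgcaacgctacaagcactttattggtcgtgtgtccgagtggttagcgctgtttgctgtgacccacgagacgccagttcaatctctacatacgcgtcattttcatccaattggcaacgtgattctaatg
W05B2.8: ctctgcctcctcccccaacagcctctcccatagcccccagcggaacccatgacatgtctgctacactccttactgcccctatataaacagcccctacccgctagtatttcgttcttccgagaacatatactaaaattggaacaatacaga
T04A8.17 (a snoRNA gene, chrIII:4689732-4689881, minus strand) and W05B2.8 (an snRNA gene, chrIII:10989569-10989718, plus strand) had their summits on bases 90 and 104. The near A and B box of T04A8.17 began 58 and 14 bp before the gene, and the near paired element of W05B2.8 began 68 bp before it. The letters of all these elements were chosen after the windows of thresholded peaks had been read, so the counts given for them describe these data and test nothing.

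Peaks at both kinds of gene were often thresholded. Of the snoRNA gene peaks, 87 of 188 were thresholded, or 46.3% (39.0 to 53.7%). Of the snRNA gene peaks, 20 of 62 were, or 32.3% (20.9 to 45.3%). Over all 30000 pooled peaks the share was 13.1%, and over pooled peaks near none of the snoRNA, snRNA or tRNA genes it was 12.4%. The 457 peaks at tRNA genes gave 43.3% (38.7 to 48.0%), so the intervals of the snoRNA and tRNA gene peaks overlapped and the snoRNA value lay well above the pooled background. The snRNA interval overlapped both of the others.

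For snoRNA gene peaks the share was as high away from protein-coding promoters. Outside the windows from 1000 bp upstream to 200 bp downstream of annotated protein-coding starts, 54 of 114 snoRNA gene peaks were thresholded (47.4%, 37.9 to 56.9%), against 9.53% of all pooled peaks outside them. For snRNA gene peaks the count was 8 of 34 (23.5%, 10.7 to 41.2%). Within promoter windows, 33 of 74 snoRNA gene peaks (44.6%) and 12 of 28 snRNA gene peaks (42.9%) were thresholded, against 20.7% of all pooled peaks there. Among peaks with an intronic summit outside promoter windows, the counts were 27 of 52 at snoRNA genes (51.9%) and 4 of 13 at snRNA genes (30.8%), against 10.5% of pooled peaks away from small RNA genes. A promoter of a neighbouring protein-coding gene was therefore not a feature that the thresholded snoRNA gene peaks shared: 37.9% of them lay in one, against 52.4% of thresholded peaks away from these genes.

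The median signal was 77.9 over the 188 snoRNA gene peaks, 63.7 over the 62 snRNA gene peaks, 83.2 over the tRNA gene peaks and 43.9 over all pooled peaks. Among thresholded peaks alone, the median was 195 at snoRNA genes (94.3 to 697), 147 at snRNA genes (95.2 to 364) and 138 over all 3935 peaks (91.1 to 1445). In rank among all pooled peaks, where 1 is the strongest, the thresholded snoRNA gene peaks had a median of 1049 and the snRNA gene peaks one of 1772. The highest of them ranked 47th and 276th, so neither kind held the top of the list.

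**Figure D1:**
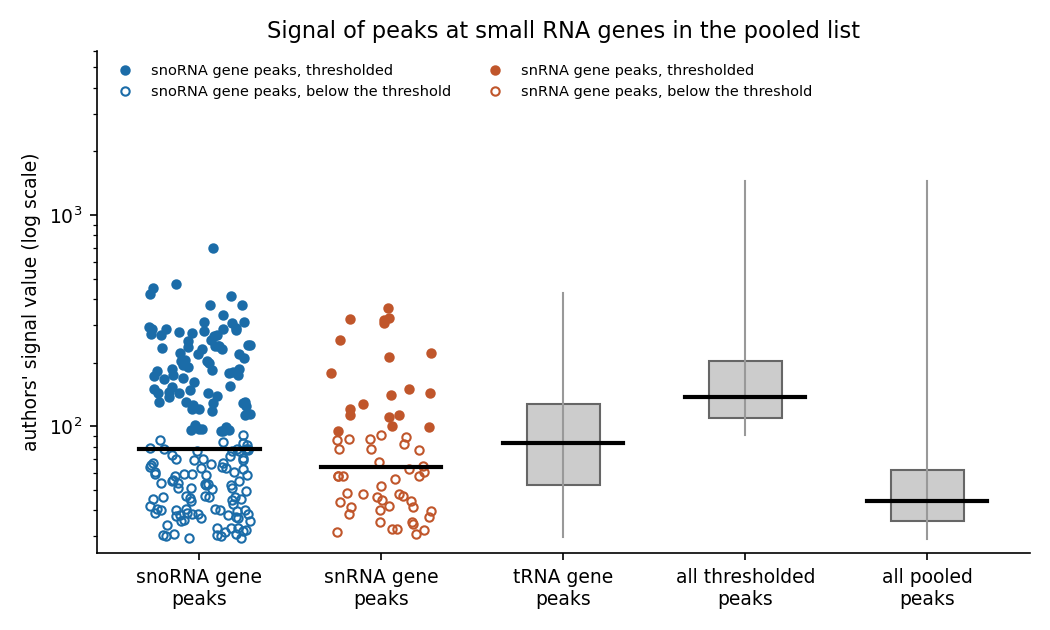
The authors' signal value on a log axis for each snoRNA gene peak and each snRNA gene peak in the pooled list (filled, thresholded; open, below the threshold; black line, median), beside tRNA gene peaks, all thresholded peaks and all pooled peaks (box, quartiles; grey line, range; black line, median). The snoRNA gene peaks reach 697 and the snRNA gene peaks 364, and the medians of both (77.9 and 63.7) lie above that of all pooled peaks (43.9).

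Counted by gene, 87 of 346 snoRNA genes had a thresholded summit within 250 bp, or 25.1% (20.7 to 30.1%). Among snRNA genes 19 of 129 did, or 14.7% (9.11 to 22.0%). For protein-coding genes, with the summit within 250 bp of any annotated start, the share was 6.01%. Other noncoding genes set the range: 37.1% of 612 tRNA genes, 14.9% of 194 lincRNA genes, 8.05% of 261 microRNA genes and 0.391% of 15363 piRNA genes. With any pooled summit, the shares were 51.4% of snoRNA genes and 42.6% of snRNA genes, against 25.2% of protein-coding genes. In all, 21 small RNA genes had more than 1 pooled summit within 250 bp.

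Short snoRNA genes carried thresholded peaks more often than long ones in these counts. Of the 95 snoRNA genes up to 100 bp long, 40 had one (42.1%, 32.0 to 52.7%), and of the 251 longer ones 47 did (18.7%, 14.1 to 24.1%). By chromosome, the share of snoRNA genes ran from 9.09% on X (3 of 33, 1.92 to 24.3%) to 31.0% on II (22 of 71, 20.5 to 43.1%). These are the lowest and highest chromosomes, their intervals overlapped, and no difference between chromosomes was tested. Over all pooled peaks, 15.5% on X and 12.5% on II were thresholded. For snRNA genes the lowest share was 2.44% on IV (1 of 41, 0.0617 to 12.9%). That chromosome also holds 7 of the 10 smy genes of that biotype, none of which had a pooled peak. Their part in the low share was not tested.

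**Figure D2:**
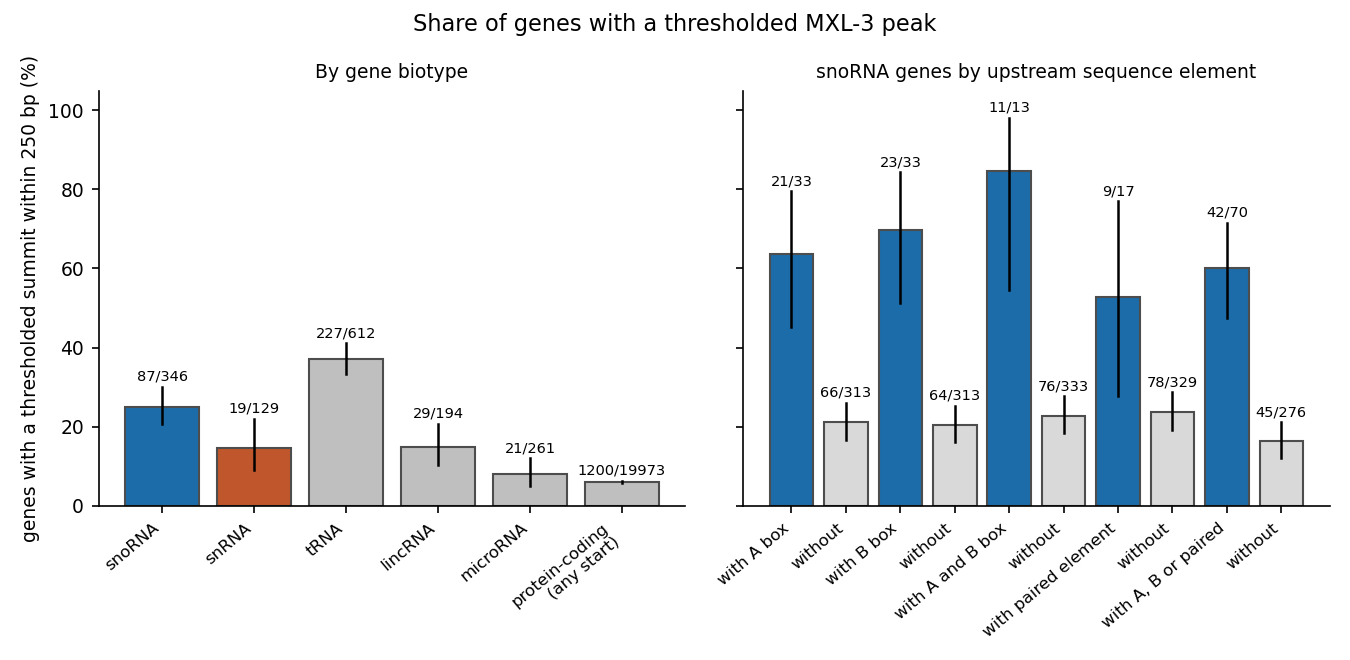
Percentage of genes with a thresholded MXL-3 summit within 250 bp, by gene biotype (left) and for snoRNA genes with and without each upstream element (right), with exact 95% intervals as lines and counts above the bars. snoRNA genes stand at 25.1% and snRNA genes at 14.7%, against 6.01% of protein-coding genes, and 11 of the 13 snoRNA genes with an A and a B box upstream carry a peak.

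The strongest peak at a snoRNA gene was that of K02F3.15, with a signal of 697 in the pooled list, 308 in replicate 1 and 389 in replicate 2. Its summit, at chrIII:833847 of WBcel235, lay 412 bp downstream of the snoRNA 5′ end, past the end of that 175 bp gene, and 241 bp upstream of a start of zip-2, the bZIP transcription factor gene whose intron holds the snoRNA. The site therefore lies in a promoter window of the host as well as beside the snoRNA. The 2 replicates placed it almost equally, at rank 46 and rank 51.

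T04A8.17 came next with a pooled signal of 469 and 256 and 206 in replicates 1 and 2, and its summit lay 21 bp upstream of the gene. F59C6.15 had a pooled signal of 449 (184 and 261 in the replicates), at 74 bp upstream. ZK994.7, in an intron of the peroxidasin gene pxn-1, reached 422 (202 and 220) with its summit at chrV:8500577, 2 bp upstream of the snoRNA and 5688 bp downstream of the nearest pxn-1 start. For these 3 the summit sat just before the snoRNA gene, and for ZK994.7 it was far from any annotated protein-coding start.

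T03F7.8, whose sequence is printed above, had a pooled signal of 413 (206 and 208 in replicates 1 and 2) and a summit 39 bp upstream. F07A11.15 had 374 and a second thresholded peak of 121, and both fell in the promoter window of din-1, a corepressor gene on the opposite strand. D2021.6 had 373 (129 and 235), in the promoter window of sdha-1, which encodes the flavoprotein subunit of succinate dehydrogenase. C51F7.4 had 335, and C51F7.3 lay within 250 bp of the same summit, so the peak cannot be given to one of the pair. C46C2.8, T06C12.16, ZK20.9 and T02E1.9 completed the 12 strongest with signals of 312, 310, 307 and 296. Their summits lay between 2 and 38 bp upstream of the gene.

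The strongest peak at an snRNA gene was that of the SL2 gene sls-2.4, with a signal of 364 in the pooled list, 146 in replicate 1 and 219 in replicate 2. Its summit, at chrI:4172207, lay 1 bp inside the gene. The U1 gene sup-6, known for alleles that alter splice site choice, reached 326 (152 and 165 in the replicates) with its summit 3 bp upstream. W05B2.8 had 322 (142 and 175), 7 bp upstream, inside an intron of the dynein heavy chain gene dhc-4. Of the sequence of W05B2.8 there are 14 identical gene copies in the genome, and how the depositors placed reads that map to several copies is not given in the sources used here.

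Both sls-2.2 and sls-2.1 followed closely, with pooled signals of 317 and 309. In replicate 1 they stood at 116 and 95.9, and in replicate 2 at 200.0 and 210. C52E4.8 had 2 thresholded peaks of 255 and 150, which were also the promoter peaks of snr-4, a gene for an Sm core protein that binds snRNAs. Its stronger summit lay 39 bp upstream of C52E4.8 and 356 bp upstream of an snr-4 start. sls-2.6, F38E11.10 and sls-2.16 had 221, 213 and 179, and the second peak of sls-2.4 and the peak of T08G5.11 had 143 and 140. The sls-2.6 peak lay 246 bp upstream of the SL2 gene but only 51 bp upstream of a start of its host hgo-1, which encodes an enzyme of tyrosine breakdown.

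Thresholded summits gathered just upstream of the snoRNA gene. Of the 87, 64 lay upstream of the 5′ end (73.6%, 63.0 to 82.4%), 19 inside the gene and 4 beyond its 3′ end. The median position was 26 bp upstream, and 54 (62.1%, 51.0 to 72.3%) lay in the 100 bp before the gene. Among the 101 snoRNA gene peaks below the threshold, 44 lay upstream (43.6%, 33.7 to 53.8%), 31 lay beyond the 3′ end, and 21 (20.8%, 13.4 to 30%) lay in the 100 bp before the gene. The intervals of the 2 classes did not overlap for the share upstream or for the share in the last 100 bp.

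At snRNA genes the thresholded summits also lay mostly upstream. Of the 20, 12 were upstream (60%, 36.1 to 80.9%), 5 inside and 3 downstream, with a median of 5 bp upstream. Of the 42 below the threshold, 18 were upstream (42.9%, 27.7 to 59.0%), and the intervals overlapped. For 81 of the 87 thresholded snoRNA gene peaks and 19 of the 20 thresholded snRNA gene peaks, the summit was nearer to the 5′ end of the small RNA gene than to any protein-coding start. Below the threshold this held for 96 of 101 and 38 of 42, and the choice of summits near small RNA genes favours it in all 4 sets.

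**Figure D3:**
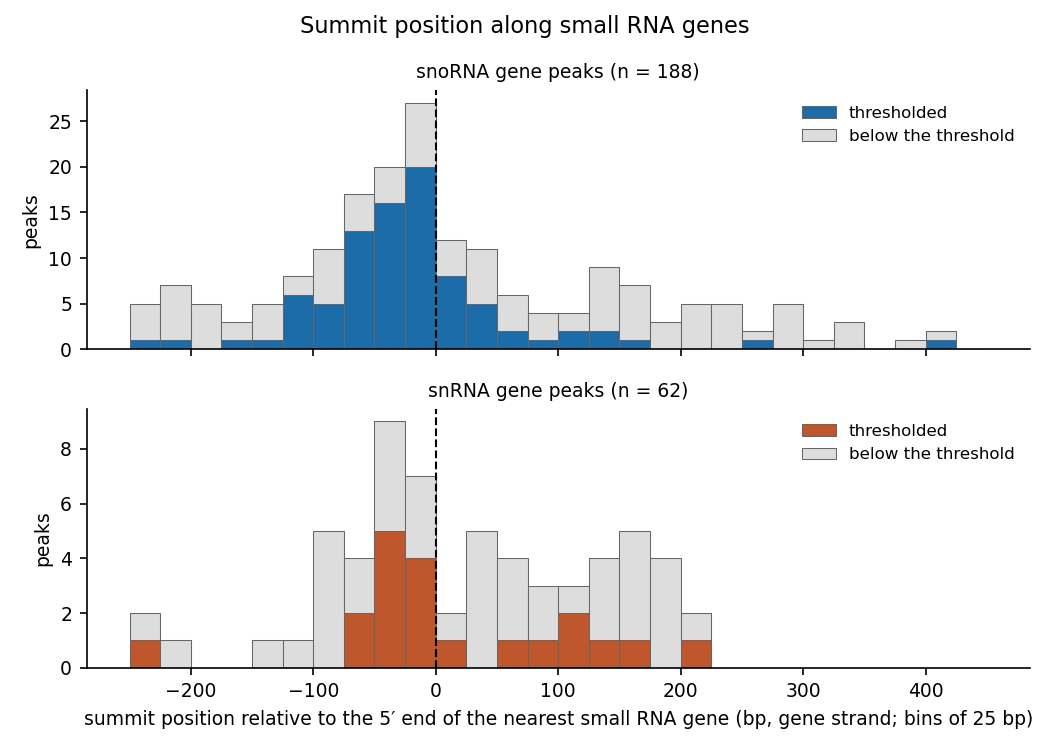
Number of peaks by summit position relative to the 5′ end of the nearest snoRNA gene (top, n = 188) or snRNA gene (bottom, n = 62), in bp on the strand of the gene and in bins of 25 bp, with thresholded peaks in colour and peaks below the threshold in grey. Thresholded snoRNA gene summits gather just before the gene, with 64 of 87 upstream of it, while the peaks below the threshold spread along and past it.

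The elements in the printed sequences recurred within limited ranges of distance from the gene. An A box followed on the same strand by a B box that starts 20 to 90 bp later was found in the 120 bp upstream of 13 snoRNA genes and no snRNA gene. It was found upstream of 2 of 29784 protein-coding starts (0.00672%). In the 13 genes the A box began between 72 and 53 bp before the gene, and the B box between 27 and 9 bp before it. The spacing between their first bases was 43 to 45 bp in 12 genes and 52 bp in F55A11.10. Of these 13 genes, 11 carried a thresholded peak (84.6%, 54.6 to 98.1%), against 76 of the 333 snoRNA genes without such a pair (22.8%, 18.4 to 27.7%).

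All 11 thresholded summits lay upstream of the gene, between 81 and 25 bp before it, and so within or next to the stretch from A box to B box. The signals ran from 95.1 at ZK546.18, in an intron of the Mediator subunit gene mdt-4, to 413 at T03F7.8, with T19B4.8, F55A11.10 and W03C9.9 at 290, 279 and 255. F32E10.10, T08B2.13 and C04G6.12 had 239, 200.0 and 181. Y39G10AR.24, T24H7.6 and T10B9.11 had 156, 148 and 143. Of the remaining pair, Y59E1B.14 had a pooled peak below the threshold with a signal of 44.4, and Y43F8C.22 had none. These genes were named after their sequences had been read.

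Near spellings, with at most 1 letter changed in each box, were counted after the data had been seen. They widened the A and B box set to 54 snoRNA genes (15.6%) and 9 snRNA genes (6.98%), against 2.48% of protein-coding starts. Of the 41 snoRNA genes with a near spelling only, T04A8.17 among them, 23 had a thresholded peak (56.1%, 39.7 to 71.5%), against 53 of the 292 with neither (18.2%, 13.9 to 23.1%). None of the 9 snRNA genes had one, which allows a share of up to 33.6%. The 9 include sls-1.1 and sls-1.5, which have an identical copy and no pooled peak. A missing peak at these genes cannot be told apart from reads that could not be placed. These near pairs could have any spacing from 20 to 90 bp, whereas the exact pairs had 43 to 52 bp. Some snoRNA genes with a near spelling only had no pair within that range. Of these, C08D8.3, C17D12.8, C51F7.3, D1046.6, T02E1.9 and Y71G12B.41 had a thresholded peak. More of them had none, namely C06E7.95, F17C11.15, K07C5.10, T07D4.7, T08D2.11, T09H2.2, Y24D9A.10 and smy-2. The share of 56.1% takes in genes with and without a pair in that range. The count of near spellings is therefore not a count of genes with the layout of the exact pairs.

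Taken singly, the A box letters stood upstream of 33 snoRNA genes, of which 21 had a thresholded peak (63.6%, 45.1 to 79.6%), against 66 of the 313 without them (21.1%, 16.7 to 26.0%). The B box letters also stood upstream of 33 snoRNA genes, of which 23 had one (69.7%, 51.3 to 84.4%), against 64 of 313 without them (20.4%, 16.1 to 25.3%). Upstream of protein-coding starts, the A box letters occurred in 1.06% and the B box letters in 1.82% of the windows of that length, against 9.54% of snoRNA genes in each case. Inside annotated tRNA genes, 95.9% of 612 held the B box letters and 17.6% the A box letters, so this spelling of the A box covers few tRNA genes. No snRNA gene had the A box letters upstream and 3 of 129 had those of the B box.

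The paired element stood upstream of 17 snoRNA genes (4.91%) and 11 snRNA genes (8.53%), against 7 of 29784 protein-coding starts (0.0235%). Its first base lay 74 to 58 bp before the snoRNA genes and 60 to 57 bp before the snRNA genes. Nearly all of these genes had a pooled peak, 15 of the 17 snoRNA genes and 10 of the 11 snRNA genes. A thresholded peak was found at 9 of the 17 snoRNA genes (52.9%, 27.8 to 77.0%), against 78 of the 329 without the element (23.7%, 19.2 to 28.7%), and at 5 of the 11 snRNA genes (45.5%, 16.7 to 76.6%), against 14 of the 118 without it (11.9%, 6.64 to 19.1%). In both biotypes the intervals with and without the element overlapped. With at most 1 letter changed in each part, the element stood upstream of 38 snoRNA genes (11.0%) and 42 snRNA genes (32.6%), against 0.124% of protein-coding starts. Of those with a near spelling only, 8 of 21 snoRNA genes (38.1%, 18.1 to 61.6%) and 4 of 31 snRNA genes (12.9%, 3.63 to 29.8%) had a thresholded peak. The 31 include 10 sls-1 genes that all have an identical copy and no pooled peak. A missing peak at those genes cannot be told apart from reads that could not be placed. The shares with neither spelling were 70 of 308 snoRNA genes (22.7%, 18.2 to 27.8%) and 10 of 87 snRNA genes (11.5%, 5.65 to 20.1%), and these intervals overlapped too.

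The base just before TGTCGG was G or A in most of these genes, in both biotypes, and was looked at after the sequences had been read. With G in that place the element stood upstream of 10 snoRNA genes, 8 of them with a thresholded peak, and of 3 snRNA genes, none of them with one. With A it stood upstream of 3 snoRNA genes, 1 with a thresholded peak, and of 8 snRNA genes, 5 with one. The other 4 snoRNA genes had C or T there. The snoRNA genes with the element and a thresholded peak were F59C6.15 (449), Y67A10A.14 (281), Y74C9A.6 (220), T08B6.64 (195), Y55F3BR.9 (190), C16D9.11 (174), F25H2.15 (130), F43A11.8 (120) and C16D9.10 (94.3), with the signal in brackets. Their strongest summits lay from 74 bp upstream to 41 bp inside the gene. The snRNA genes were sup-6 (326), sls-2.16 (179), T08G5.11 (140), sls-2.15 (112) and sls-2.14 (99.4), of which the last 3 had summits 104 to 144 bp past the 5′ end and so away from the element.

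**Figure D4:**
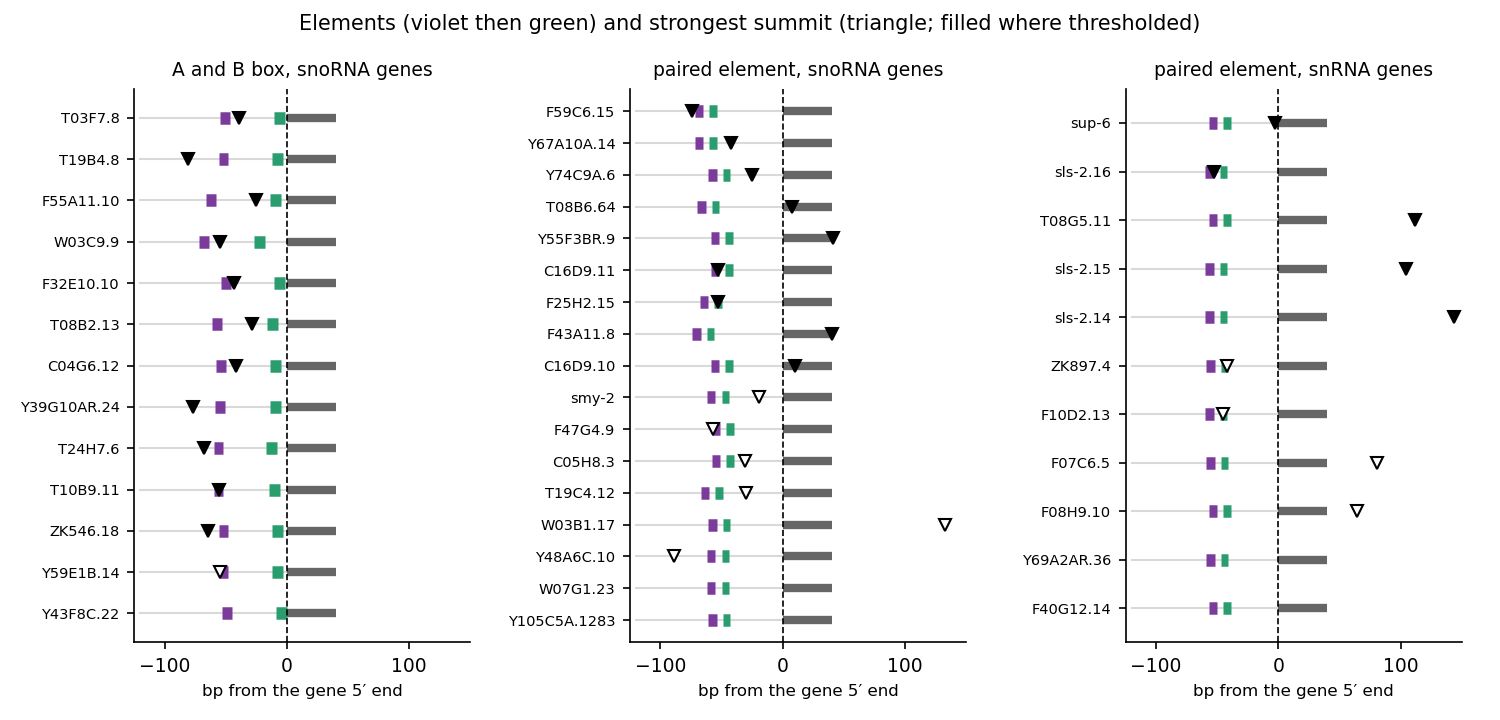
Position of the upstream elements (violet, A box or first part of the paired element; green, B box or second part) and of the strongest summit (triangle, filled where thresholded) in bp from the 5′ end of each gene (dark bar, first 40 bp of the gene) for the 13 snoRNA genes with an A and a B box, the 17 snoRNA genes with the paired element and the 11 snRNA genes with it, each ordered by signal. The first box or part begins 72 to 53 bp, 74 to 58 bp and 60 to 57 bp before the gene in the panels, in that order. The summits of the A and B box genes all lie upstream of the gene. The peak of Y69A2AR.36, 222 bp upstream, is outside the panel.

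Seen from the peaks, the windows within 100 bp of the summit also held the elements. The A box letters were in 31.0% of the 87 thresholded snoRNA gene windows, against 7.93% of 3630 thresholded windows away from small RNA and tRNA genes. The B box letters were in 35.6%, against 5.84%, and in 81.3% of the thresholded tRNA gene windows. In the 101 snoRNA gene windows below the threshold, the A box letters were in 7.92%, the B box letters in 9.9% and the paired element in 4.95%. Over all windows below the threshold these shares were 7.85%, 9.04% and 0.196%. The paired element was in 9 of the 87 snoRNA gene windows (10.3%) and 2 of the 20 snRNA gene windows (10%), against 0 of the 3630 others, for which the interval reaches 0.102%. So all 11 thresholded windows that held it lay at snoRNA or snRNA genes. In the whole pooled list 62 windows held it, of which 42 lay away from snoRNA, snRNA and tRNA genes. Base composition moved with these counts: the median GC content was 48.8% in the thresholded snoRNA gene windows and 46.8% in the snRNA gene windows, against 44.3% in the other thresholded windows, and its part in the motif counts was not tested.

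CACGTG, the E-box typical of Max-family binding, lay within 100 bp of 5 of the 87 thresholded snoRNA gene summits (5.75%, 1.89 to 12.9%), against 16.9% (15.7 to 18.1%) of thresholded peaks away from small RNA and tRNA genes. The intervals did not overlap. At snRNA genes 2 of 20 thresholded summits had it (10%, 1.23 to 31.7%), an interval that holds the value of the other peaks, and at tRNA genes 3.03% did. The snoRNA genes with CACGTG at a thresholded summit were ZK484.9, H09I01.2, F19H8.6, Y71G12B.41 and T28B8.11, and the snRNA genes were sls-2.6 and sls-2.16, all named after their windows were read. In sls-2.16 the letters can be seen in the printed sequence, before the paired element. Of the other 9 E-box classes, CAGCTG was the one whose interval at thresholded snoRNA gene summits, 12.6% (6.48 to 21.5%), lay above that of the other thresholded windows, 5.65% (4.92 to 6.45%). These limits nearly touched, the class was singled out among the 9 by this gap, and the excess was not tested. Below the threshold CAGCTG was in 7.92% of snoRNA gene windows, against 6.46% of all windows there. The intervals of the remaining 8 overlapped at snoRNA genes.

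Some of the bound genes lay in introns. Of the 346 snoRNA genes, 150 lay within an intron of a protein-coding gene on the same strand, 28 within one on the opposite strand and 168 in no intron. A thresholded peak was found at 29 of the 150 (19.3%, 13.3 to 26.6%), at 9 of the 28 (32.1%, 15.9 to 52.4%) and at 49 of the 168 (29.2%, 22.4 to 36.7%). The intervals overlapped, which does not show that the shares were equal, and the difference by host was not tested. Among snRNA genes the counts were 6 of 36 with a host on the same strand, 2 of 20 on the opposite strand and 11 of 73 with no host.

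Few of the thresholded peaks at intronic small RNA genes had their summit in the promoter window of the host. For thresholded snoRNA gene peaks this was so in 8 of 38 (21.1%, 9.55 to 37.3%), and for snRNA gene peaks in 1 of 7. Below the threshold the counts were 10 of 54 (18.5%) and 5 of 19 (26.3%), so this was not particular to thresholded peaks. The hosts of the intronic snoRNA genes at thresholded peaks were, on the same strand, zip-2, pxn-1, cfim-2, catp-8, F55A11.6, rfs-1, rbm-34, rps-12, madf-11, C08D8.1, fars-1, plpr-1, unc-41, Y38F2AR.12, rol-3, F01D5.10, cgt-3, mix-1, cng-3, pcyt-2.1, T24H7.2, inx-11, ril-2, mltn-9, acsd-1, unc-70, pyk-1 and mdt-4. On the opposite strand they were ppat-1, cutl-18, din-1, twk-5, haf-9, Y55F3BR.2, mpk-2, pdl-1 and pcmd-1. The hosts ranged widely in what they encode, from the ribosomal protein gene rps-12 and the phenylalanyl-tRNA synthetase gene fars-1 to the spectrin gene unc-70, the pyruvate kinase gene pyk-1 and the condensin subunit gene mix-1.

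The distance to a protein-coding start was large for several of them. In unc-70 the peak of K11C4.6 (signal 113) lay 6085 bp upstream of the nearest protein-coding start, that of K11C4.2. In acsd-1 the peak of Y71D11A.7 (118) lay 5907 bp downstream of the nearest start. In pyk-1 the peak of F25H5.9 (97.0) lay 1789 bp downstream of it. By contrast, the D1046.6 peak (293) lay 207 bp upstream of a start of cfim-2, and the F59G1.14 peak (168) lay 211 bp upstream of one of cgt-3. With the A box, B box or paired element upstream, 14 of 27 snoRNA genes with a host on the same strand had a thresholded peak (51.9%, 31.9 to 71.3%), against 15 of 123 without (12.2%, 6.99 to 19.3%). Without a host the counts were 22 of 31 (71.0%, 52.0 to 85.8%), against 27 of 137 (19.7%, 13.4 to 27.4%). The difference had the same direction in both, but the elements were chosen from these same peaks, so this split gives no independent support.

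The hosts of thresholded snRNA gene peaks were F58G1.7 for sup-6, dhc-4 for W05B2.8, hgo-1 for sls-2.6, C15F1.5 for sup-39 and W09D6.5 for sls-2.15 on the same strand. On the opposite strand they were the glutamate receptor gene glr-2 for sls-2.16 and W09D6.5 for sls-2.14. The gene mir-1831, which the annotation gives the biotype snRNA, shares the sup-39 peak.

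The snRNA genes were also counted by family, with no test between families. Genes of like length were grouped where their sequences were at least 75% identical. The SL2 family, with 18 sls-2 genes and ZK1251.14, had a pooled peak at 14 of 19 genes and a thresholded peak at 8. Those 8 were sls-2.1, sls-2.2, sls-2.4, sls-2.6, sls-2.7, sls-2.14, sls-2.15 and sls-2.16. The family of sup-6 and sup-39 had 13 members, 10 with a pooled peak and 4 with a thresholded one, namely sup-6, sup-39, T08G5.11 and F08H9.11. A family of 24 genes, 17 of them with an identical copy, had 2 with a thresholded peak (W05B2.8 and F54D8.7). A family of 19 genes of up to 187 bp had 1 (F08G2.10) and one of 12 genes also had 1 (F38E11.10), as did the 5 genes of the C52E4.8 family and M163.13, which had no relative. The 22 bp mir-1831 made up the count of 19.

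None of the 12 sls-1 genes had even a pooled peak, which allows a share of up to 26.5%, and every one of them has an identical copy. By comparison, 8 of the 18 sls-2 genes (44.4%, 21.5 to 69.2%) had a thresholded peak, and none of those genes has an identical copy. The 2 intervals overlapped. The 10 smy genes of this biotype had no pooled peak either. By contrast, smy-2 and smy-3, which the annotation gives the biotype snoRNA, had pooled peaks below the threshold, at 81.6 and 86.1. Whether reads from the repeated sls-1 copies were kept is not given in the sources used here, so a missing peak there cannot be told apart from reads that could not be placed. Over all snRNA genes, 5 of 44 with an identical copy had a thresholded peak (11.4%, 3.79 to 24.6%) and 14 of 85 without one did (16.5%, 9.31 to 26.1%). No snoRNA gene has an identical copy.

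The replicates both held nearly all of the thresholded peaks. An IDR threshold keeps peaks on which replicates agree, so the selection itself favours high shares here, and they are no independent check. Of the 87 snoRNA gene peaks, 84 had a summit within 100 bp in each replicate list (96.6%, against 96.4% of all thresholded peaks), and 76 (87.4%, 78.5 to 93.5%) were among the 3935 strongest peaks of both. Of the 20 snRNA gene peaks, 19 were matched in both lists and 13 (65.0%, 40.8 to 84.6%) were among the strongest 3935 of both. Over all thresholded peaks the share among the strongest of both was 71.1%. The median ranks were 954 and 1224 for snoRNA gene peaks and 1607 and 2223 for snRNA gene peaks in replicates 1 and 2. The peaks at Y53F4B.47, F17C11.24, T25D3.8 and F54D8.7 had no match in replicate 1. Below the threshold, 48 of 101 snoRNA gene peaks and 20 of 42 snRNA gene peaks were matched in both lists, against 36.1% of all peaks below it. None of these snoRNA and snRNA gene peaks was among the strongest 3935 of both, and only 0.0192% of all peaks below the threshold were.

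**Figure D5:**
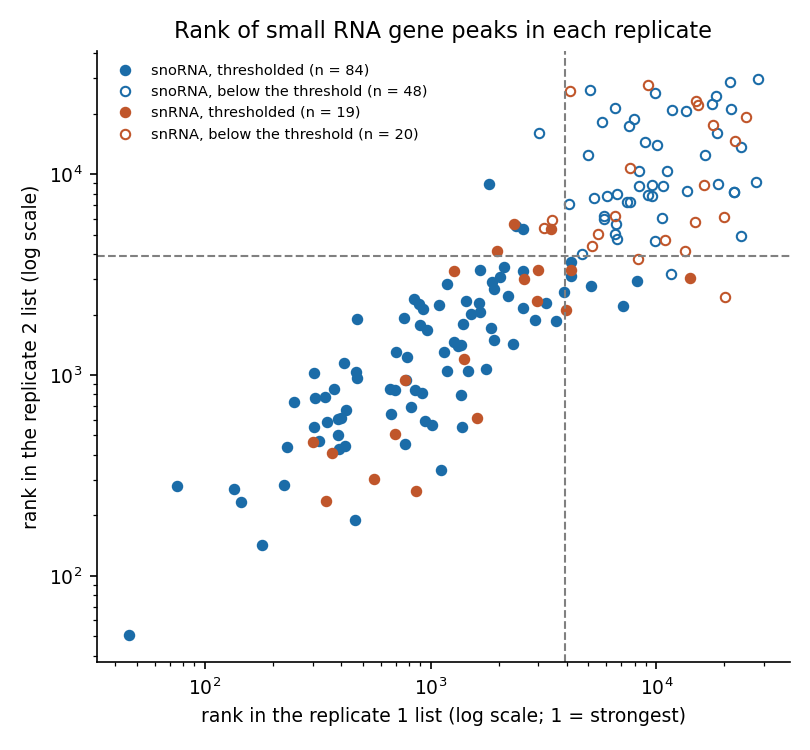
Rank of each matched snoRNA and snRNA gene peak in the replicate 1 list (horizontal) and the replicate 2 list (vertical), both on log axes with 1 the strongest (filled, thresholded; open, below the threshold; dashed lines, rank 3935). The 84 matched thresholded snoRNA gene peaks and 19 matched thresholded snRNA gene peaks gather in the lower left, and 76 and 13 of them lie inside both dashed lines.

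Members just inside and just outside the threshold had nearly equal signals. The last 3 snoRNA gene peaks inside were T28B8.11, ZK546.18 and C16D9.10, at 95.6, 95.1 and 94.3. The first 3 outside were C07A9.14, smy-3 and C25F6.30, at 90.5, 86.1 and 83.8. For snRNA genes the last inside were F54D8.7, sls-2.14 and F08H9.11, at 101, 99.4 and 95.2, and the first outside were ZK897.4, Y57G11C.35 and H27M09.6, at 90.8, 89.2 and 86.9. ZK897.4 is one of the snRNA genes with the paired element.

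Genes for proteins that work with these RNAs were also looked up. Of 37 names for snoRNA- and snRNA-binding proteins and for the factors that transcribe snRNA genes, 35 matched a gene, and 6 of those had a thresholded summit in a promoter window (17.1%, 6.56 to 33.6%). Over all protein-coding genes the share was 11.3%, within that interval. The 6 were fib-1, which encodes the methyltransferase fibrillarin (signal 217, 69 bp upstream of a start), snr-4 (255, shared with C52E4.8), the spliceosome gene prp-8 (176), snpc-3.4 (146, 851 bp upstream), the snoRNP protein gene nol-58 (104) and lsm-7 (96.1). A pooled promoter summit was found at 20 of the 35 (57.1%, 39.4 to 73.7%), against 41.0% of all protein-coding genes. nol-56 and lsm-3, named after their values were seen, were just below the threshold at 88.5 and 84.3. Of the 6 genes, nol-58, snr-4 and snpc-3.4 had 2 thresholded promoter summits each. At the 1 summit per gene given here, none of the 6 had CACGTG within 100 bp.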

How the data were processed

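MXL-3 chromatin immunoprecipitation was measured in 2 biological replicates of 1 group. The authors deposited peak lists on assembly ce11, per the labels, made from each replicate, or from both pooled, with a control, per the listings deposited with them. The deposited signal is the caller's value per peak, and the deposited −log10 column, a q-value by the column order of the format, was not used to select peaks. The sources used here name no caller, aligner or control strain, and no rule for reads with several placements.

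Here, positions are 1-based and genes come from Ensembl release 115, whose 475 snoRNA and snRNA genes all matched RefSeq WBcel235 by gene identifier and took their symbols from it (36 differed). A peak belonged to a gene within 250 bp of its summit and was described by the nearest such gene. An intronic gene lay wholly within an intron of a protein-coding transcript. Motif letters were sought within 100 bp of summits, on either strand, and on the gene strand in the 120 bp upstream of genes. Genes named are those of the 12 strongest thresholded peaks per biotype, the 3 on each side of the threshold, the hosts of thresholded intronic peaks and the machinery genes with a thresholded promoter summit, besides others said to be named after their values were seen. The genes and lists were chosen with earlier results of these data known. Scripts were tested on simulated data. Identities between genes used Biopython 1.88, intervals scipy 1.17.1, tables pandas 2.3.3 with numpy 2.4.6, and figures matplotlib 3.10.9, all under Python 3.11.15.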

Additional observations from a re-analysis of the deposited data

How the results depend on the processing

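With the stronger of 2 equal parts of the thresholded list (1967 peaks), the share of snoRNA gene peaks called was 35.1% and of snRNA gene peaks 19.4%, and the share of genes called was 19.4% for snoRNA and 7.75% for snRNA. This alternative calls fewer peaks by construction. The share of snoRNA gene peaks that were thresholded was 54.7% with summits within 100 bp of the gene and 38.8% within 500 bp, and the cause was not tested. Replicate matching of thresholded snoRNA gene peaks was 88.5% with summits within 50 bp. In the other 44 settings, over 16 results, the value stayed within the 95% interval of the one reported. From 1 replicate alone, with its 3935 strongest peaks taken as called, the share was 45.2% to 45.8% of snoRNA gene peaks, 32.2% to 33.3% of snRNA gene peaks, 24.6% to 25.1% of snoRNA genes and 14.0% of snRNA genes. The shares of snoRNA genes with the A box, B box and paired element that had a peak were then 60.6% to 63.6%, 63.6% to 75.8% and 52.9%. These element values, upstream windows of 60 bp and 250 bp (56.4% to 64.7% for the A box, 58.5% to 74.2% for the B box, 52.9% to 60% for the paired element) the leaving out of genes with an identical copy and the near spellings were chosen after seeing the data. No paired analysis was possible because there is 1 group. Depth is unknown, so peaks that were missed for lack of reads cannot be counted.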
